A study of Mus musculus with 102 samples.

Results

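Regions of the mouse embryonic stem (ES) cell genome that carried the ISWI proteins SNF2H and BAZ1A were described from chromatin immunoprecipitation with sequencing (ChIP-seq). A region was taken when the authors' region table of 129/Ola ES cells listed SNF2H, BAZ1A or both. This gave 32446 of 67697 regions. Of these, 9948 listed both proteins, 17017 listed SNF2H alone and 5481 listed BAZ1A alone, and the remaining 35251 regions listed neither.

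SNF2H is an ATPase of the ISWI family of chromatin remodelers, which slide and space nucleosomes. BAZ1A, also called ACF1, is a non-catalytic partner that joins SNF2H in the ACF and CHRAC complexes. WSTF, also called BAZ1B, is a related protein that joins SNF2H in a separate complex, WICH, so that a share of SNF2H is bound by partners other than BAZ1A. H3K4me1 without H3K4me3 is typical of enhancers, H3K4me3 is typical of promoters, and H3K27ac marks the active forms of both.

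The series held 102 ChIP-seq libraries of mouse ES cells made to find chromatin proteins that lie together with H3K4me1 at enhancers and to see whether they need the mark. The 129/Ola cells, labelled with no mutation, were grown on feeder cells and moved to feeder-free passage before crosslinking, and gave 2 SNF2H and 2 BAZ1A libraries, each protein with its own antibody. H3K4me1 was also compared between R1 ES cells of strain 129SV that carried catalytically dead MLL3 and MLL4, the main H3K4me1 methyltransferases of enhancers, and R1 cells of the wild type, with 2 libraries of each and both lines grown on feeders. The labels name no separate cultures for replicates, and do not say whether a line was 1 clone.

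The table gives 1 log2 enrichment per factor and region. The lowest listed value was 0.59 for SNF2H and 0.59 for BAZ1A, near a fold of 1.5, and the highest was 2.49 for SNF2H and 2.09 for BAZ1A. A protein that was not listed at a region was therefore below that limit or not measured there, and was not shown to be absent. The 2 libraries of SNF2H, and the 2 of BAZ1A, were merged by the authors into 1 value. No difference could therefore be set against the spread between replicates. No read counts were given, so the depth is unknown. Intervals are 95% Wilson intervals for shares and order-statistic intervals for medians. They cover counting error over regions only, and regions of 1 library set are not independent replicates. More cells with a protein at a region and more protein per cell cannot be told apart in such data, and the profiles may share input libraries. SNF2H on chromosome 11 stood apart from the other autosomes, so each main result is given with and without that chromosome.

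SNF2H and BAZ1A were each listed at a larger share of the regions with the other protein than of the regions without it. SNF2H was listed at 39.8% of all regions, BAZ1A at 22.8% and both at 14.7%. Of the 15429 BAZ1A regions, 64.5% (63.7 to 65.2) also listed SNF2H, against 32.6% of the 52268 regions without BAZ1A. Of the 26965 SNF2H regions, 36.9% (36.3 to 37.5) also listed BAZ1A, against 13.5% of the 40732 regions without SNF2H. The overlap was thus the larger share of the BAZ1A list. Without chromosome 11, SNF2H was listed at 63.1% of regions with BAZ1A and 29.6% without it, and BAZ1A at 38.7% of regions with SNF2H and 13.5% without it.

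The gap was present in each class of H3K4 methylation. Among regions with H3K4me1 only, SNF2H was listed at 47.4% with BAZ1A and 21.3% without BAZ1A. Among regions with both H3K4 marks the shares were 79.2% with BAZ1A and 60.9% without it. Among regions with H3K4me3 only they were 71.5% with BAZ1A and 45.3% without it. The H3K4me1-only shares were 45.8% with BAZ1A and 19.1% without it when chromosome 11 was left out.

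The proteins differed in the kind of region they marked. Regions with both proteins were mostly regions with both H3K4 marks, regions with SNF2H alone were divided nearly evenly between H3K4me1 only and both marks, and regions with BAZ1A alone had an H3K4me1-only share near that of all regions. The H3K4me1-only share was 32.1% (31.2 to 33.0) for both proteins, 43.8% (43.1 to 44.6) for SNF2H alone, 64.8% (63.5 to 66.1) for BAZ1A alone and 78.3% (77.9 to 78.8) for neither, and it was 61.8% over all regions. On each of 20 chromosomes the share was below that of all regions for both proteins and for SNF2H alone. BAZ1A alone was above it on 15 of 20 chromosomes, but standardised to the widths of all regions its share was 58.8%, below that of all regions.

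Regions with both H3K4 marks made up 56.2% of those with both proteins, 40.6% of those with SNF2H alone, 26.7% of those with BAZ1A alone and 12.6% of those with neither. They made up 27.2% of all regions, so that BAZ1A alone was near the share over all regions. Regions with H3K4me3 only made up 11.7% of those with both proteins, 15.5% of those with SNF2H alone, 8.45% of those with BAZ1A alone and 9.05% of those with neither. SNF2H alone was thus the group with the highest H3K4me3-only share, and that share exceeded the share over all regions on 20 of 20 chromosomes. Leaving out chromosome 11 gave an H3K4me1-only share of 31.7% for both proteins, 43.8% for SNF2H alone and 64.3% for BAZ1A alone. With each protein counted only at a log2 enrichment of 1 or more, it was 17.3% for both proteins, 29.3% for SNF2H alone and 48.5% for BAZ1A alone. At that limit a protein counted as alone also where the other was listed below 1.

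**Figure D1:**
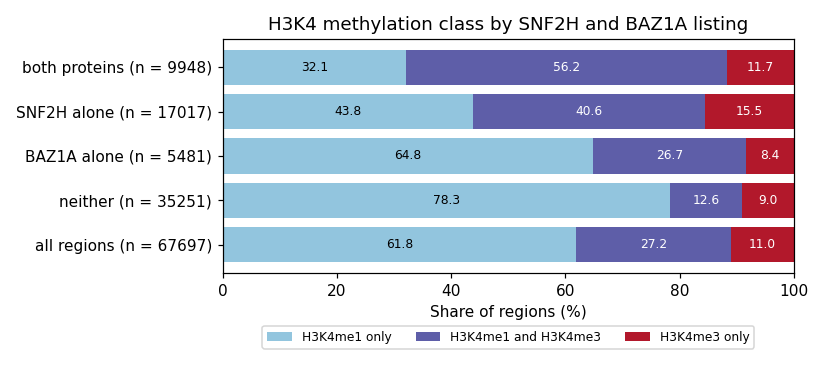
Share of regions (%) in each class of H3K4 methylation, for regions with both proteins, SNF2H alone, BAZ1A alone, neither, and all regions; n is the number of regions. The H3K4me1-only part was 32.1% with both proteins, 43.8% with SNF2H alone and 64.8% with BAZ1A alone.

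H3K27ac was listed at 62.6% of all regions, and more often where SNF2H or BAZ1A was listed. Among H3K4me1-only regions it was listed at 72.0% (70.4 to 73.5) of those with both proteins, 62.0% (60.9 to 63.1) of those with SNF2H alone, 57.5% (55.9 to 59.1) of those with BAZ1A alone and 37.8% (37.3 to 38.4) of those with neither. The order was both proteins, SNF2H alone, BAZ1A alone, neither, with no overlap of these intervals. Over all H3K4me1-only regions the share was 46.4%. When the shares were standardised to the widths of all regions, the share was 67.9% for BAZ1A alone and 66.6% for SNF2H alone, a gap no larger than the counting error of the unstandardised shares. Among regions with both H3K4 marks, where H3K27ac is common, it was listed at 91.7% of those with both proteins, 90.5% of those with SNF2H alone, 81.9% (79.9 to 83.8) of those with BAZ1A alone and 82.6% (81.5 to 83.7) of those with neither. Over all regions with both marks the share was 88.3%. There BAZ1A alone did not stand above neither and was below the share over all of them. With chromosome 11 left out, the H3K4me1-only shares were 73.1% for both proteins, 61.3% for SNF2H alone, 57.7% for BAZ1A alone and 38.0% for neither.

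The level of H3K27ac, where it was listed, was higher with SNF2H in H3K4me1-only and H3K4me3-only regions. In H3K4me1-only regions its median log2 enrichment was 1.29 with both proteins, 1.25 with SNF2H alone, 1.17 with BAZ1A alone and 1.15 with neither. In H3K4me3-only regions it was 1.83 with both proteins, 1.87 with SNF2H alone, 1.66 with BAZ1A alone and 1.61 with neither. In regions with both marks it was 1.31 with both proteins, 1.33 with SNF2H alone, 1.27 with BAZ1A alone and 1.31 with neither, so that neither was not lower there.

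The authors' lists of active and poised enhancers are H3K4me1-only regions that were chosen partly for listed factors, SNF2H and BAZ1A among them. They were divided by H3K27ac, but not simply by whether it was listed. Of the H3K4me1-only regions with both proteins, 72.0% listed H3K27ac and 58.2% were active, so some poised enhancers listed it. Every H3K4me1-only region with either protein was in 1 of the lists, so their shares describe the lists and are not independent of the selection. Of the 12492 active enhancers 14.9% had both proteins, against 6.82% of the 19567 poised ones. SNF2H alone made up 28.4% of the active list and 20.02% of the poised list. For BAZ1A alone it was 11.6% (11.1 to 12.2) of the active and 10.7% (10.3 to 11.2) of the poised list, a difference of 0.89 percentage points. When chromosome 11 was left out, the shares for BAZ1A alone were 12.2% (11.7 to 12.9) of active and 11.1% (10.6 to 11.5) of poised enhancers, and those for both proteins were 14.9% of active and 6.48% of poised enhancers. At a log2 enrichment of 1 or more, the active share exceeded the poised share by 2.79 percentage points for both proteins and 2.48 for BAZ1A alone. At the authors' limit it did so by 8.08 and 0.89 points. The groups differ between these limits, since BAZ1A alone then took in regions with SNF2H listed below 1.

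Width separated the proteins. BAZ1A was listed far more often at narrow than at wide regions, and the share of SNF2H over all classes was nearly the same in the narrowest and widest regions. BAZ1A appeared at 31.1% of regions in the narrowest decile of width, 181 to 235 bp, and at 6.23% of those in the widest, from 3050 bp. SNF2H was listed at 37.2% of the narrowest decile and 37.0% of the widest. The ratio of the narrowest to the widest share was 4.99 for BAZ1A and 1.005 for SNF2H. It was higher than for BAZ1A only for WSTF (8.63) and BRG1 (5.26), PHF5A followed at 3.61, and BAF155, SAP18 and RUVBL2 were listed less often in narrow regions (0.48, 0.59 and 0.61).

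The fall of BAZ1A with width was seen in each H3K4 class. In H3K4me1-only regions BAZ1A was listed at 24.5% of the narrowest and 2.84% of the widest decile. In regions with both marks it was listed at 55.3% of the narrowest and 9.56% of the widest. SNF2H in H3K4me1-only regions was listed at 29.6% of the narrowest and 16.6% of the widest decile, and in H3K4me3-only regions at 47.1% of the narrowest and 34.6% of the widest. In regions with both marks it was listed at 64.8% of the narrowest, 73.7% of decile 7 and 57.2% of the widest. SNF2H was thus also lower in the widest than in the narrowest decile within each class. Without chromosome 11, BAZ1A was listed at 30.7% of the narrowest and 6.46% of the widest decile, and SNF2H at 35.8% of the narrowest and 32.0% of the widest. How the enrichment of a region was computed over its width is not given in the sources used here, and its part in this pattern was not tested.

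**Figure D2:**
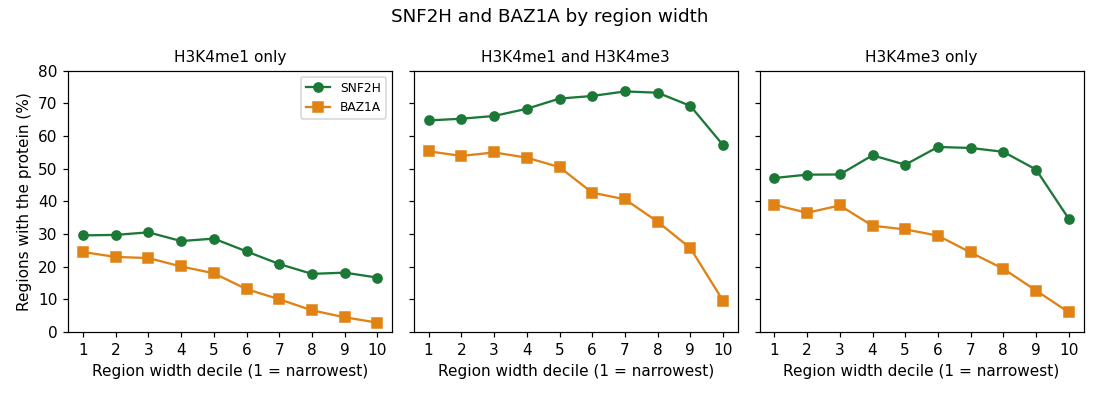
Share of regions (%) that listed SNF2H (circles) or BAZ1A (squares) in deciles of region width, cut over all regions from narrowest (1) to widest (10), for each class of H3K4 methylation. BAZ1A was lower in the widest than in the narrowest decile in all 3 classes, and so was SNF2H, by less: in regions with both marks BAZ1A was at 55.3% and 9.56%, and SNF2H at 64.8% and 57.2%, in the narrowest and the widest decile.

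Median widths were lower with BAZ1A than without it in each class. Over all classes the median was 596 bp (quartiles 300 and 1260 bp) for both proteins, 1015 bp for SNF2H alone, 376 bp for BAZ1A alone and 869 bp for neither. In H3K4me1-only regions it was 338 bp (330 to 347) for both proteins, 480 bp (461 to 501) for SNF2H alone, 340.5 bp (331 to 348) for BAZ1A alone and 674 bp (655 to 692) for neither. The intervals for both proteins and BAZ1A alone overlap, and both lie below SNF2H alone. In regions with both marks it was 757 bp for both proteins, 1421 bp for SNF2H alone, 441.5 bp for BAZ1A alone and 1565 bp for neither. The H3K4me1-only medians without chromosome 11 were 339 bp for both proteins, 438 bp for SNF2H alone and 343 bp for BAZ1A alone.

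Both proteins were listed where many other factors were listed. The other 15 factors with libraries in these cells belong to several known groups. SSRP1 had 1 library, BAF155 and SMC3 had 3 each and the rest 2 each. BRG1 is the ATPase and BAF155 a core subunit of the BAF remodeler. MED1, MED12 and SUR2 (MED23) are Mediator subunits, which link transcription factors to RNA polymerase II. RUVBL1 and RUVBL2 are ATPases of the INO80 and TIP60 complexes, and SSRP1 is a subunit of the histone chaperone FACT. SMC3 is a core subunit of cohesin, the ring complex that shapes chromatin loops. SRSF1, SRSF2 and PHF5A act in splicing, SAP18 is a subunit of SIN3 and splicing-related complexes, and PHRF1 is a protein with PHD and RING fingers.

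Over all classes a region held a mean of 8.89 ± 3.26 (SD over regions) of the 15 factors with both proteins, 6.66 ± 3.48 with SNF2H alone, 5.34 ± 3.08 with BAZ1A alone and 2.59 ± 2.64 with neither. In H3K4me1-only regions the means were 6.23 with both proteins, 4.33 with SNF2H alone, 4.22 with BAZ1A alone and 1.89 with neither. SNF2H alone and BAZ1A alone were thus nearly alike at H3K4me1-only regions. Without chromosome 11 these means were 6.18 with both proteins, 4.26 with SNF2H alone and 4.19 with BAZ1A alone.

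Across all regions, BAF155 was listed at 26.1%, BRG1 at 18.7%, MED1 at 32.6%, MED12 at 24% and SUR2 at 31.4%. PHF5A was listed at 19.8%, PHRF1 at 36.6%, RUVBL1 at 31.3%, RUVBL2 at 38.5% and SAP18 at 42.1%. SMC3 was listed at 36.9%, SRSF1 at 40.8%, SRSF2 at 54%, SSRP1 at 34% and WSTF at 9.47%. All 15 were listed more often with both proteins than with SNF2H alone, BAZ1A alone or neither, over all classes and in H3K4me1-only regions.

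The factors set the proteins apart. Regions with both proteins exceeded regions with SNF2H alone most for PHF5A (46.0% with both proteins and 23.0% with SNF2H alone), BRG1 (43.2% and 22.8%) and PHRF1 (71.8% and 51.9%), on 20 of 20 chromosomes for each. They exceeded them least for WSTF (12.3% with both proteins and 10.3% with SNF2H alone), SRSF2 (80.8% and 72.5%) and BAF155 (51.8% and 42.0%). Without chromosome 11 the difference was 22.1 percentage points for PHF5A, 19.8 for BRG1 and 10.9 for BAF155, against 23.0, 20.4 and 9.77 with it.

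The subunits of the BAF remodeler were distributed differently between SNF2H alone and BAZ1A alone. BAF155 was listed at 42.0% of regions with SNF2H alone and 23.2% of regions with BAZ1A alone, higher with SNF2H alone on 20 of 20 chromosomes. BRG1 was listed at 22.8% of regions with SNF2H alone and 25.1% of regions with BAZ1A alone, higher with SNF2H alone on 6 of 20 chromosomes. PHF5A was listed at 23.0% with SNF2H alone and 28.5% with BAZ1A alone, higher with SNF2H alone on 1 of 20 chromosomes. SAP18 (61.7% with SNF2H alone and 44.5% with BAZ1A alone) and RUVBL2 (55.6% and 39.0%) followed BAF155. Over all classes without chromosome 11 the difference was 17.6 points for BAF155, -1.37 for BRG1 and -4.47 for PHF5A, against 18.9, -2.30 and -5.50 with it. In H3K4me1-only regions the differences were smaller for BAF155 (4.33 points), PHF5A (-4.03), SAP18 (2.35) and RUVBL2 (1.40), but not for BRG1 (-2.46). The largest there were SRSF2 (6.56 points) and MED1 (5.50), which fell to 3.10 and 1.54 without chromosome 11. Without chromosome 11, SUR2 in H3K4me1-only regions changed its sign, 0.08 points with that chromosome and -0.09 points without it. BRG1 and PHF5A were listed more often at narrow regions, and BAF155, SAP18 and RUVBL2 at wide ones. The part of width in these differences was not tested.

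**Figure D3:**
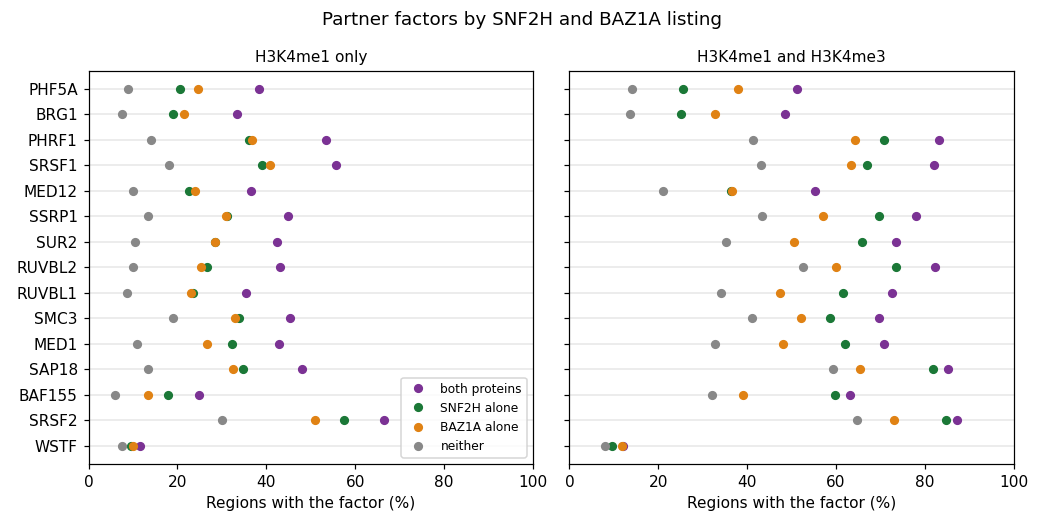
Share of regions (%) that listed each of 15 other factors, for regions with both proteins (purple), SNF2H alone (green), BAZ1A alone (orange) and neither (grey), in H3K4me1-only regions and regions with both marks, on all chromosomes. In H3K4me1-only regions SNF2H alone and BAZ1A alone nearly coincide for most factors, while in regions with both marks PHF5A and BRG1 lie higher with BAZ1A alone and BAF155 and SAP18 with SNF2H alone.

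The number of other factors tracked SNF2H closely. SNF2H was listed at 4.17% of the 9564 regions with no other factor and at 97.3% of the 711 regions with 14. The BAZ1A share was 1.997% at regions with no other factor and 73.7% at those with 14. The co-listing of the proteins was therefore also compared within regions of the same H3K4 class and the same number of other factors, a comparison chosen after the data were seen. The SNF2H share was then 6.71 percentage points higher with BAZ1A than without it, against 31.9 points with no such matching. The matched difference without chromosome 11 was 8.08 points, against 33.5 unmatched. Per chromosome the matching was looser, for the number of other factors only and not for H3K4 class. That difference was above 0 on 18 of 20 chromosomes.

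Other factors went with SNF2H at least as closely as BAZ1A did. With the same matching, the SNF2H difference was 11.5 points for MED1, 9.21 for PHRF1, 9.16 for BAF155 and 8.79 for SUR2, and BAZ1A was number 10 of 16 factors. On the chromosomes other than 11 the difference was 9.34 points for PHRF1, 8.57 for SUR2, 8.22 for MED1 and 8.20 for BAF155, and BAZ1A was number 5. The order thus depended on chromosome 11. For each factor compared, the number of other factors left out that factor and SNF2H.

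Seen from BAZ1A, SNF2H was not the closest factor either. With the same matching, the BAZ1A share was 12.7 points higher with PHF5A than without it, 10.6 with BRG1, 7.11 with PHRF1, 6.93 with MED12 and 5.09 with SNF2H, which was number 6 of 16. It was -0.64 points for BAF155, -0.22 for SAP18 and 0.03 for SRSF2. Without chromosome 11 PHF5A (12.2 points) and BRG1 (10.2) led again, and SNF2H (6.46) was number 5. BAZ1A was listed at 45.7% of PHF5A regions and 44.7% of BRG1 regions, against 36.9% of SNF2H regions. PHF5A and BRG1 were, like BAZ1A, listed more often at narrow than at wide regions. Matched for class and width instead, the BAZ1A difference was 19.99 points for PHF5A, still number 1, 17.0 for BRG1, number 5, and 16.9 for SNF2H, number 7. Off chromosome 11 it was 20.2 points for PHF5A, 17.4 for BRG1 (number 6) and 18.1 for SNF2H (number 4).

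**Figure D4:**
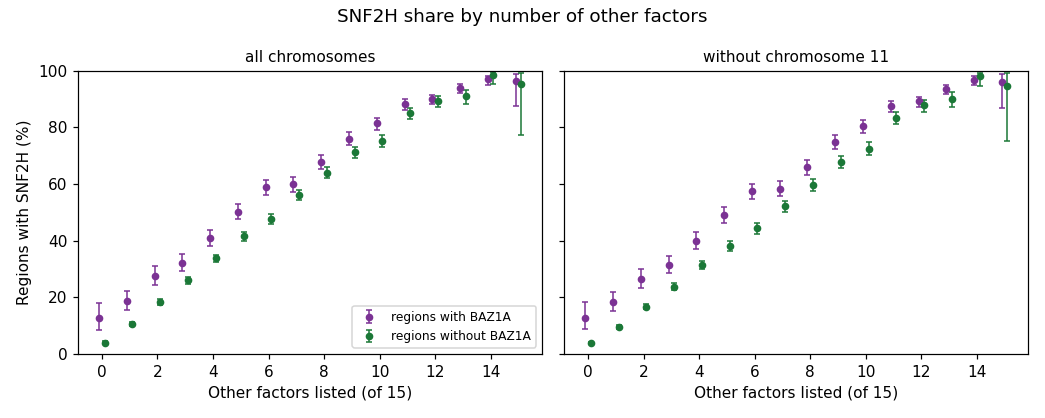
Share of regions (%) that listed SNF2H, by how many of the other 15 factors were listed, for regions with BAZ1A (purple) and without BAZ1A (green), on all chromosomes and without chromosome 11. Points are shares and bars 95% Wilson intervals. The shares climbed with the number of other factors in both, and regions with BAZ1A lay above regions without it up to 13 other factors.

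WSTF, the other SNF2H partner among the factors used here, overlapped with it least. SNF2H was listed at 46.4% (45.2 to 47.7) of the 6414 WSTF regions and 39.1% (38.8 to 39.5) of regions without WSTF, the lowest share of SNF2H among the 16 factors. In turn, WSTF was listed at 12.3% of regions with both proteins, 10.3% with SNF2H alone, 10.8% with BAZ1A alone and 8.07% with neither. In H3K4me1-only regions SNF2H was listed at 30.4% with WSTF and 25.03% without WSTF. BAZ1A appeared at 28.3% of WSTF regions and 22.2% of regions without WSTF, a difference of 6.03 points. Matched for class and width, this difference turned to -0.50 points, and to -0.43 points without chromosome 11. Matched for class and number of factors instead, it stayed above 0, at 2.93 points and 2.77 points without chromosome 11. The sign thus depended on the matching. Without chromosome 11, SNF2H was listed at 43.8% of WSTF regions and 36.6% of the others. With matching for class and number of factors the difference was 1.70 points for SNF2H, again the lowest of the 16. With matching for class and width it was 3.97 points, also the lowest. Of the WSTF regions, 1219 listed both proteins, 1759 SNF2H alone, 593 BAZ1A alone and 2843 neither.

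Each protein was stronger where the other was listed. The median log2 enrichment of SNF2H was 1.11 (1.11 to 1.12) at regions with BAZ1A and 0.99 (0.99 to 0.99) at regions without it. That of BAZ1A was 1.05 (1.04 to 1.06) at regions with SNF2H and 0.91 (0.90 to 0.92) at regions without it. In H3K4me1-only regions SNF2H had a median of 0.99 with BAZ1A and 0.90 without it, and BAZ1A a median of 0.96 with SNF2H and 0.87 without it. Without chromosome 11 the medians were 1.101 and 0.97 for SNF2H and 1.04 and 0.91 for BAZ1A, with and without the other protein.

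Stronger regions of one protein more often listed the other. From the weakest to the strongest quartile of SNF2H regions, BAZ1A was listed at 23.5%, 30.0%, 39.4% and 54.7%. Over the quartiles of BAZ1A regions, SNF2H was listed at 45.0%, 60.2%, 72.8% and 79.9%. The mean number of other factors also climbed over these quartiles, for SNF2H as 4.69, 6.89, 8.41 and 9.94. On the chromosomes other than 11 the strongest quartile of SNF2H listed BAZ1A at 60.2%, and the strongest quartile of BAZ1A listed SNF2H at 78.3%.

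At the 9948 regions with both proteins, Spearman's rho between their log2 enrichments was 0.43, and it was 0.43 without chromosome 11. The points share 2 library sets, the width and the base composition of the region. For SNF2H, rho with the 16 factors ran between 0.05 with WSTF and 0.47 with RUVBL2, and BAZ1A was the fourth highest. For BAZ1A, SNF2H was the highest, next to SAP18 at 0.43. Within a class rho was 0.32 in H3K4me1-only regions, 0.39 in regions with both marks and 0.47 in H3K4me3-only regions. In strength, unlike in listing, SNF2H was thus at the top among the factors compared with BAZ1A, and without chromosome 11 SAP18 passed it (0.429 for SAP18, 0.427 for SNF2H).

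Single regions show the range. The strongest region with both proteins, chr8:125372243-125372472 (mm9, 230 bp, both H3K4 marks), had a log2 enrichment of 2.13 for SNF2H and 2.09 for BAZ1A and listed 13 of the 15 other factors, without MED1, WSTF or H3K27ac. The second, chr2:90936946-90937183 (238 bp, both marks), had 1.96 for SNF2H and 2.07 for BAZ1A, 14 other factors and an H3K27ac log2 enrichment of 2.33. The only other factor missing there was SSRP1, so WSTF (1.11) and both ISWI proteins were listed together. The third, chr14:43645852-43646032 (181 bp, H3K4me3 only), had 2.49 for SNF2H and 1.45 for BAZ1A and 12 other factors.

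The strongest H3K4me1-only region with both proteins, chr15:80861916-80862141 (226 bp), was in the list of active enhancers. It had 1.83 for SNF2H and 1.82 for BAZ1A, 8 other factors with BRG1 (0.79) among them, and H3K27ac at 1.41. An R1 H3K4me1 peak on it had a fold enrichment of 1.76 in catalytic-dead cells and 2.80 in wild-type cells. At the strongest region with both proteins the H3K4me1 peak had 3.61 in catalytic-dead cells and 2.24 in wild-type cells. The fold enrichment in catalytic-dead cells was thus lower at the enhancer region and higher at the region with both marks.

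The strongest regions of a single protein were 200 to 271 bp wide and held 7 to 11 other factors. The strongest with SNF2H alone were chr14:7259482-7259752 (271 bp, H3K4me3 only, SNF2H 2.45, 7 other factors) and chr6:83186972-83187196 (225 bp, both marks, SNF2H 2.39, 11 other factors). BRG1 had a log2 enrichment of 2.47 at the region on chromosome 6. The strongest with BAZ1A alone were chr4:46989667-46989891 (225 bp, H3K4me1 only, BAZ1A 1.93, 11 other factors, an active enhancer) and chrX:5660286-5660485 (200 bp, both marks, BAZ1A 1.91, 7 other factors). BRG1 was listed at neither of these, and WSTF (1.47) was listed at the region on chromosome X.

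On chromosome 11 SNF2H was listed more often than on any other autosome, while the share of BAZ1A over all classes was within their range. SNF2H was listed at 68.6% of its 5440 regions, against 32.1% to 41.6% (median 37.2%) on the 18 other autosomes. BAZ1A was listed at 21.5% of regions on chromosome 11, against 20.5% to 26.3%. Within classes BAZ1A was below every other autosome at regions with both marks (30.5%, against 35.7% to 46.9%) and at H3K4me3-only regions (15.4%, against 16.6% to 41.1%), and within their range at H3K4me1-only regions (17.0%, against 13.3% to 18.6%). Regions with SNF2H alone made up 51.2% on chromosome 11, against 16.8% to 26.7%, and regions with BAZ1A alone 4.14%, against 6.997% to 10.4%. SNF2H was listed at 65.3% of regions without BAZ1A on chromosome 11, against 22.8% to 34.8% on the others. BAZ1A was listed at 25.3% of SNF2H regions there, against 35.6% to 48.5%.

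Where listed, both proteins were stronger on chromosome 11 than on any other autosome. The median log2 enrichment of SNF2H was 1.16, against 1.001 to 1.034 on the other autosomes. The share of regions with SNF2H at a log2 enrichment of 1 or more was 51.5%, against 16.6% to 22.7%. For BAZ1A the median was 1.08, against 0.96 to 1.01, and the share at 1 or more was 14.0%, against 9.13% to 12.8%. The excess of SNF2H listings ran along the whole chromosome: SNF2H was listed at 50.2% to 82.2% of regions in the 13 bins of 10 Mb with at least 100 regions, against 21.8% to 53.7% in 195 bins of the other chromosomes, of which 6 exceeded the lowest bin of chromosome 11. The BAZ1A share was 13.1% to 26.4% in the same 13 bins, against 12.1% to 36.0% in the others.

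Other factors were high on chromosome 11 as well. MED1 was listed at 60.1% of its regions, against 25.3% to 35.7% on the other autosomes, SRSF2 at 78.0%, against 46.0% to 57.2%, and BAF155 at 37.6%, against 20.9% to 30.8%. Over all classes BRG1 (17.8%, against 17.1% to 20.8%) and SMC3 (37.1%, against 34.6% to 39.5%) were in range. At regions with both marks BRG1 (25.3%, against 28.6% to 34.7%) and SMC3 (52.7%, against 53.7% to 64.6%) were below every other autosome. Over all classes 12 of 17 factors were above every other autosome. The count was 13 of 17 at H3K4me1-only regions, 7 of 17 at regions with both marks and 6 of 17 at H3K4me3-only regions. Over all classes H3K27ac (68.9%, against 52.1% to 70.1%) was within range. What set chromosome 11 apart was not tested.

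Chromosome X, with 643 regions, listed SNF2H at 54.3% and BAZ1A at 35.0%. There, 13.4% of regions were H3K4me1 only, against 56.8% to 67.4% on the autosomes other than 11. SNF2H at H3K4me1-only regions was 27.9% on chromosome X, against 17.9% to 27.2% on those autosomes.

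**Figure D5:**
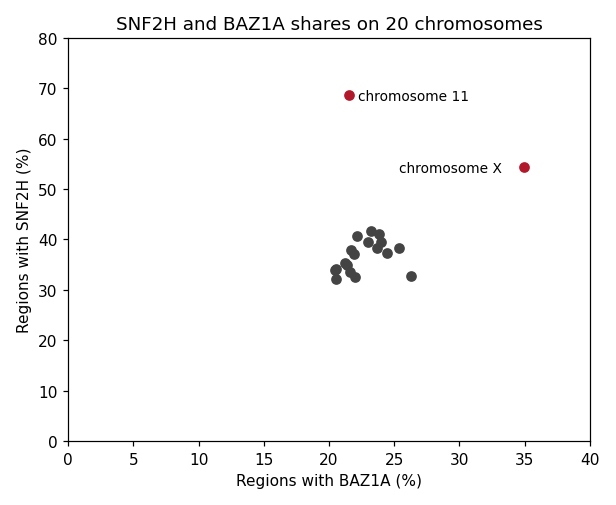
Share of regions (%) with SNF2H against the share with BAZ1A, 1 point for each of 20 chromosomes; chromosomes 11 and X are marked in red. Chromosome 11 lies at 68.6% for SNF2H, above all others, and at 21.5% for BAZ1A, among the other autosomes.

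The last comparison asked whether the loss of H3K4me1 in catalytic-dead R1 cells differed between regions with and without the proteins in 129/Ola cells. Over all 82053 H3K4me1 peaks of R1 cells, 28.4% fell by 2-fold or more in catalytic-dead cells relative to wild-type cells and 15.2% gained 2-fold or more. SNF2H and BAZ1A were not measured in R1 cells, and the comparison sets 2 strains of cells beside each other. The fold enrichments were put back in step with the positions of the peaks, since the deposited layout is out of step.

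At H3K4me1-only regions the mark was lower in catalytic-dead cells in each group, to a similar degree. At least 1 R1 H3K4me1 peak lay on 62.9% of these regions with both proteins and 71.4% with SNF2H alone. The share was 57.6% with BAZ1A alone and 72.2% with neither. Regions with no such peak are not part of the comparison. With both proteins the median fold enrichment was 1.82 in catalytic-dead cells and 3.08 in wild-type cells, a median log2 ratio of -0.82 (-0.89 to -0.77) over 1665 peaks. The median log2 ratio was -0.87 (-0.90 to -0.85) with SNF2H alone, -0.79 (-0.84 to -0.74) with BAZ1A alone and -0.79 (-0.80 to -0.77) with neither. The counting interval for SNF2H alone lay below that for neither. The mark was at least 2-fold lower at 42.2% of peaks with both proteins, 43.9% with SNF2H alone, 41.0% with BAZ1A alone and 40.9% with neither. Off chromosome 11 the median log2 ratio was -0.83 with both proteins, -0.87 with SNF2H alone, -0.79 with BAZ1A alone and -0.79 with neither.

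At regions with both H3K4 marks the fold enrichment of H3K4me1 was higher in catalytic-dead cells, and most with both proteins. Whether the amount of the mark rose was not tested. An R1 peak lay on 85.9% of these regions with both proteins and 92.3% with SNF2H alone. The share was 79.5% with BAZ1A alone and 91.9% with neither. The median log2 ratio was 0.72 (0.70 to 0.74) with both proteins, 0.57 (0.55 to 0.59) with SNF2H alone, 0.55 (0.50 to 0.58) with BAZ1A alone and 0.57 (0.55 to 0.59) with neither. The enrichment was at least 2-fold higher at 28.2% of peaks with both proteins, 21.3% with SNF2H alone, 21.8% with BAZ1A alone and 21.0% with neither. Either protein alone was thus near neither. At H3K4me3-only regions the median log2 ratio was 1.13 with both proteins, 1.08 with SNF2H alone, 1.13 with BAZ1A alone and 1.07 with neither. Off chromosome 11 the median at regions with both marks was 0.74 with both proteins, 0.60 with SNF2H alone, 0.55 with BAZ1A alone and 0.57 with neither. In the deposited layout of the values these medians turned negative, -0.15 with both proteins, -0.15 with SNF2H alone and -0.23 with BAZ1A alone.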

How the data were processed

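ChIP-seq of 129/Ola ES cells was analysed from a region table of 67697 regions, for which the authors deposited log2 enrichment values per factor. The H3K4me1 peak table of R1 cells gives a fold enrichment per line, per the file headers. The submitters' processing notes name the build mm9 with Bowtie, Picard and MACS2 for 74 libraries, and MACS2 2.1.0.20150731, BWA 0.7.13-r1126, deepTools (2.5.1, 2.5.3) and Picard 2.11.0 for R1 cells. Not given in the sources used here are the tools' roles, how replicates were combined and what enrichment is relative to. Of 31 names in the table, 20 were used and 11 were not used. Regions lay at least 1001 bp apart.

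Groups are the listing of each protein. Shares, medians and differences were computed with Python 3.11.15, pandas 2.3.3, numpy 2.4.6 and scipy 1.17.1, and drawn with matplotlib 3.10.9; the matching steps were checked on simulated data. With 1 value per factor no test was made. Matched differences use strata with at least 10 regions on each side, weighted by regions. The matching per chromosome used the number of factors only and allowed smaller strata. R1 peaks were assigned at 1 bp of overlap or more; of 57087 peaks on regions, 3557 that touched more than 1 class or group were left out and 53530 were used. Their values were laid out in number order of the chromosomes: the mean rank correlation (Spearman's rho) between a peak's width and its enrichment in wild-type cells was, on chromosomes 2 to 19, 0.253 in that order and 0.00253 as deposited. Regions named are the 3 strongest with both proteins by the sum of log2 values, the strongest in each class, and the 2 strongest with each protein alone; chromosome 18 was skipped. The proteins, groups and comparisons were chosen with earlier results of these data known.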

Additional observations from a re-analysis of the deposited data

How the results depend on the processing

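No paired analysis was possible because the authors deposited 1 value per factor, so the columns carry no replicate, and no replicate could be left out. Of 73 values under other settings, 27 stayed about within the counting interval around the reported value, 43 moved beyond it and 3 changed sign. The cause was not tested.
Without chromosome 11, SNF2H was at 63.1% of BAZ1A regions and BAZ1A at 38.7% of SNF2H regions, the difference in SNF2H share with and without BAZ1A was 33.5 points, and for SNF2H alone the H3K4me1-only regions had a mean of 4.26 other factors and a median width of 438 bp, the active minus poised share was 6.92 points, and the R1 median log2 ratio at regions with both marks was 0.60. The SNF2H median was 0.13 higher with BAZ1A than without it, against 0.12 with chromosome 11 included.
With each protein counted only at a log2 enrichment of 1 or more, SNF2H was at 61.2% of BAZ1A regions, BAZ1A at 31.5% of SNF2H regions and the difference was 44.0 points. A protein then counted as alone also where the other was listed below 1. For both proteins, SNF2H alone and BAZ1A alone in that order, the H3K4me1-only share was then 17.3%, 29.3% and 48.5%, and in those regions H3K27ac was listed at 74.3%, 69.1% and 66.0%, the mean number of other factors was 7.53, 5.83 and 5.67 and the median width 277, 347 and 280 bp. The active minus poised share was 2.79 points for both proteins and 2.48 for BAZ1A alone.
Standardised to the widths of all regions, SNF2H was at 67.0% of BAZ1A regions and the difference was 34.7 points; the H3K4me1-only share was 29.2%, 47.2% and 58.8% and H3K27ac was listed at 79.99%, 66.6% and 67.9%. Among regions with at least 1 other factor the difference was 26.3 points. Matched for class and number of factors, a setting added after the data were seen, it was 6.71 points, and 8.08 without chromosome 11.
With at least 50% of an R1 peak on the region, the median log2 ratio at H3K4me1-only regions was -0.83 for SNF2H alone and -0.73 for BAZ1A alone, and at regions with both marks 0.84 for both proteins and 0.60 for SNF2H alone. In the deposited layout the ratios at H3K4me1-only regions were -0.23, -0.25 and -0.25, and those at regions with both marks reversed to -0.15, -0.15 and -0.23. The unknown depth and the listing limit set what can be seen: a protein below a fold of 1.5 counts as not listed.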

Other observations

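Each protein was listed more often next to a region that listed the same protein. The gap was wider in percentage points for SNF2H, which was also listed more often (39.8% of all regions, BAZ1A 22.8%). Among 28289 pairs of neighbouring regions at most 5000 bp apart, the next region listed SNF2H in 48.7% (47.7 to 49.6) of pairs whose first region listed it and in 31.2% of the others. For BAZ1A the shares were 25.7% (24.6 to 26.9) after a region with BAZ1A and 18.5% after one without it. After a region with BAZ1A the next listed SNF2H in 46.1% of pairs, against 35.7% after one without it. Without chromosome 11 the shares for SNF2H were 43.8% and 30.0%, and those for BAZ1A 26.1% and 18.5%.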
